A study of Mus musculus with 4 samples.

Results

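The 9 integrin chains analysed here are the alpha chains Itgae, Itga4, Itgal, Itgav and Itga6 and the beta chains Itgb1, Itgb2, Itgb3 and Itgb7. They were chosen by symbol as the chains of T cell adhesion and tissue retention, and each stood on 1 of the 28334 rows of the deposited expression table. The RNA came from regulatory T cells (Treg), CD4+ cells that hold back immune responses and whose defining transcription factor is Foxp3. Cells were sorted as CD4+ YFP+ from the spleen and peripheral lymph nodes of untreated C57BL/6 mice, and poly-A RNA was sequenced. All mice carried the Foxp3 YFP-Cre allele, in which the Foxp3 gene drives the recombinase Cre, written as a single copy (YFP-Cre/0). The 2 libraries called WT here had the genotype Pdpk1 +/+, and the 2 called KO had Pdpk1 FL/FL, in which Cre can remove loxP-flanked sequence in cells that express Foxp3. Pdpk1 encodes PDK1, a kinase that activates AKT and related kinases. The labels give neither age nor the number of animals behind a library, so that p-values measure only the spread between these libraries.

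Integrins are adhesion receptors built from an alpha and a beta chain, and a chain reaches the cell surface as part of such a dimer. Several chains have more than a single partner, so the transcripts are read here as pairs. Itga4 encodes a chain that pairs with the Itgb1 product to bind VCAM1 and fibronectin on inflamed vessels and matrix, and with the Itgb7 product to bind the gut addressin MAdCAM1. The Itgae chain (CD103) pairs with the Itgb7 chain to bind E-cadherin and holds T cells in epithelia. The Itgal and Itgb2 chains form LFA1, which binds ICAM proteins during contact with antigen-presenting cells. The Itga6 and Itgb1 chains form a laminin receptor, and the Itgav chain pairs with those of Itgb1, Itgb3 and Itgb8, dimers that bind vitronectin, fibronectin or the latent form of TGF-beta.

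Among pairs of members, the balance of Itga4 with Itgb1 and with Itgb7 differed most between the genotypes. These 3 genes are shown by the 250 bases before their annotated start, from RefSeq on GRCm38.p6 (the assembly of mm10), 5′ to 3′ on the strand of the gene. A start window was matched for 4 of the 9 members. Capitals mark matches, on either strand, to GGAAG (the ETS core), TGTGGT (RUNX), GTAAACA (FOXO) or GGGCGG (a GC box). The windows are chr2:79255176-79255425 (plus strand) for Itga4, chr8:128685404-128685653 (plus strand) for Itgb1 and chr15:102231936-102232185 (minus strand) for Itgb7. The Itgb7 window overlaps the end of the gene span given below (102215995 to 102231944, from GENCODE), as the 2 annotations place the start differently.
Itga4: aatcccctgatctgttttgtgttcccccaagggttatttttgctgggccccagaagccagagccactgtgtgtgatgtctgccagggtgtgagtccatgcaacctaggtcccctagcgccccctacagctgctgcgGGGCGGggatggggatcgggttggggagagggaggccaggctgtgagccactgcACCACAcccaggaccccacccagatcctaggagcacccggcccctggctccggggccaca
Itgb1: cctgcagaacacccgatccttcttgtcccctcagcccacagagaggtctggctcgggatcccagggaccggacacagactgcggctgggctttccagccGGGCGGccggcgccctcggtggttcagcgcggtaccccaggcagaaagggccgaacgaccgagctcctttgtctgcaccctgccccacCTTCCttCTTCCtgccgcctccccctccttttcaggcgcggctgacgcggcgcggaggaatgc
Itgb7: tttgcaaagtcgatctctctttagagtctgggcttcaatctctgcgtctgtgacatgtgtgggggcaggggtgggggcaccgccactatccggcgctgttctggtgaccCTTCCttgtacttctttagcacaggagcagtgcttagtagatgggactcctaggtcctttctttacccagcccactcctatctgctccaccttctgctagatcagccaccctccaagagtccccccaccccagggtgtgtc

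The Itga4 window held 1 RUNX match (14% of 32851 such windows held at least 1) and 1 GC box (32.7%). The Itgb1 window held 2 ETS core matches (64.1% of windows) and 1 GC box, and the Itgb7 window held 1 ETS core match. None of these 3 windows held the FOXO letters, which 3.17% of all windows held. The matches describe the letters only, and no binding was measured. Guanine and cytosine made up 64% of the Itga4, 68% of the Itgb1 and 56% of the Itgb7 window, against a median of 52.4% over all windows.

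The deposited values are log2 normalised counts, and the depth of the libraries is unknown. Rows entered the tests where 2 libraries or more had a linear value (the log2 value turned back by taking 2 to its power) of 10 or more, and 13685 rows did. The library medians over the tested genes lay between 8.77 and 8.80. Pdpk1 itself stood at 11.71 and 11.76 in WT and at 11.78 and 11.73 in KO, a log2 difference of 0.02 (95% interval -0.06 to 0.10). A gene-level value keeps reads of any remaining exons, and the labels do not name the floxed ones, so the groups go by their labels. Foxp3 lay between 11.38 and 11.47 in all libraries. Within groups the libraries did not vary independently, since WT 1 minus WT 2 and KO 1 minus KO 2 correlated at -0.907 over the tested genes, as a description. Whether an adjustment by replicate number preceded the deposit is not given in the sources used here and was not tested. Such an adjustment would make SDs and p-values too small and 95% intervals too narrow.

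All 9 integrin chains passed the filter and were abundant, with log2 values between 10.56 (Itgae in both WT libraries) and 12.85 (Itgal in KO 2). Their WT means, not corrected for length, lay between the 80.8th and the 99.6th percentile of the tested genes. Between the genotypes, Itgb1, Itgae, Itga6 and Itgb7 were called higher in KO and Itga4 lower, while Itgal, Itgb2, Itgav and Itgb3 did not pass the test. A call is an adjusted p under 0.05 from limma's moderated test with Benjamini-Hochberg adjustment over all 13685 genes. The 5 called chains are 55.6% of the members, near the 47.4% of all tested genes that were called (27.1% higher, 20.3% lower), so this count does not set integrins apart. The WT and KO values did not overlap in 5 of the 9 chains, against 73.0% of all tested genes. An absolute log2 difference of at least 0.2 was seen in 4 chains, against 35.9% of the tested genes. The median log2 difference was 0.03 over the members and 0.015 over all tested genes, and the median absolute difference was 0.075 and 0.14. Without any 1 of the 4 libraries, limma had 1 residual degree of freedom and called 0 genes (smallest adjusted p 0.0961 with WT 1 left out, 0.0918 with WT 2, 0.0825 with KO 1 and 0.0817 with KO 2 left out), with 5225 to 5669 genes at an unadjusted p under 0.05.

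**Figure D1:**
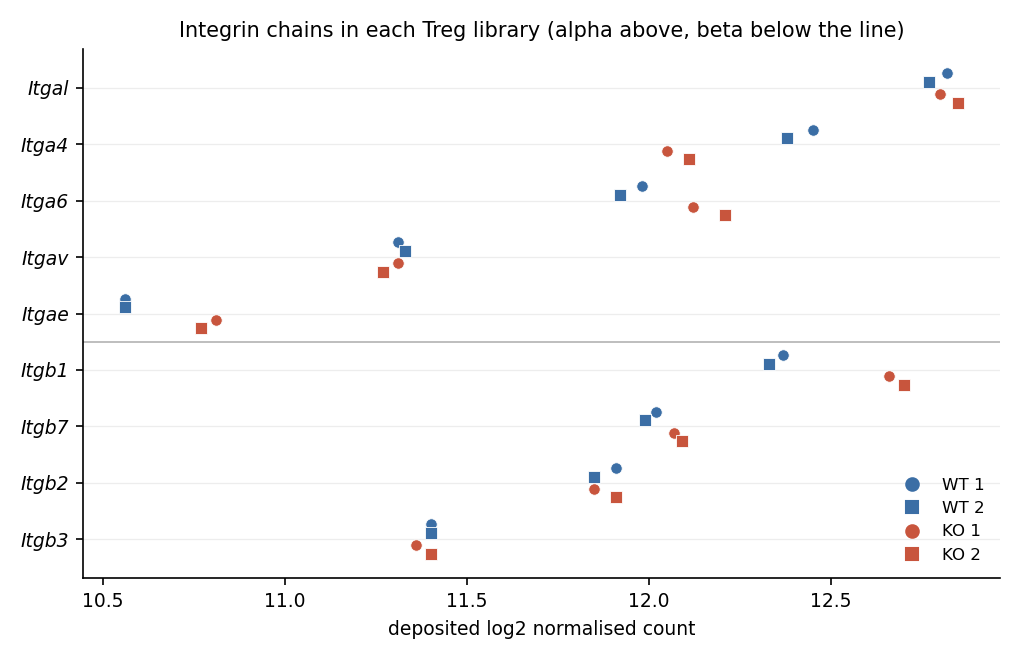
Deposited log2 normalised counts (x axis) of the 5 alpha chains, above the line, and the 4 beta chains, below it, in each of the 4 libraries. Circles are replicate 1 and squares replicate 2, WT in blue and KO in red. Itgb1, Itgae, Itga6 and Itgb7 lie higher in both KO libraries than in both WT libraries, and Itga4 lies lower.

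Itgb1, the common beta chain of the VLA family of matrix receptors, had the largest increase of the 9 chains. The gene lies on chromosome 8 (mm10, 128685654 to 128733200, plus strand). Its log2 values were 12.37 and 12.33 in WT and 12.66 and 12.70 in KO. Both KO libraries stood above both WT libraries. The SD was 0.03 within either group, from libraries that did not vary independently. The difference was 0.33 (SE 0.02, adjusted p = 0.00626 in limma), a level 1.26-fold higher in KO. In absolute size this difference exceeded that of 79.7% of the tested genes, and it lay between 0.31 and 0.35 without any 1 library.

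Itga4, the alpha chain that Itgb1 and Itgb7 share as a partner, was the only member called lower. It lies on chromosome 2 (mm10, 79255426 to 79333123, plus strand). The log2 values were 12.45 and 12.38 in WT and 12.05 and 12.11 in KO. Both KO libraries were below both WT libraries, with SDs of 0.05 and 0.04 (n = 2 each). The gene fell by 0.335 on the log2 scale (SE 0.04, adjusted p = 0.00921 in limma), a level 1.26-fold lower in KO, and the difference ranged from -0.37 to -0.30 without any 1 library. Of its 9767 exon bases, 127 also belong to Cerkl on the opposite strand, and the use of strand in counting is not given in the sources used here. No other member shared exon bases with another annotated gene.

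Itgae encodes CD103, the chain that binds E-cadherin with the Itgb7 chain, and marks Treg of epithelial and effector type. Its log2 value was 10.56 in both WT libraries, and 10.81 and 10.77 in KO (chromosome 11, mm10, 73090583 to 73147446, plus strand). The KO libraries were both higher, with a difference of 0.23 (SE 0.02, adjusted p = 0.00685 in limma), or 1.17-fold. Itgb7 stood at 12.02 and 11.99 in WT and at 12.07 and 12.09 in KO (chromosome 15, mm10, 102215995 to 102231944, minus strand). The groups did not overlap, but the difference was only 0.075 (SE 0.02, adjusted p = 0.0406 in limma), or 1.05-fold. That call was lost after median centring (difference 0.045, adjusted p = 0.125), after quantile normalization (0.0456, adjusted p = 0.0506), with no filter on low values (adjusted p = 0.0722) and with a variance prior without trend (adjusted p = 0.0855), all in limma.

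Itga6, a laminin receptor chain found on many T cells, rose with its partner Itgb1. The log2 values were 11.98 and 11.92 in WT and 12.12 and 12.21 in KO (chromosome 2, mm10, 71745616 to 71858416, plus strand). Both KO libraries were higher, and the KO group had the widest SD of any member group, 0.06 (n = 2). The difference was 0.215 (SE 0.04, adjusted p = 0.0263 in limma), or 1.16-fold, and it lay between 0.17 and 0.26 without any 1 library. With no filter on low values the call was lost (adjusted p = 0.0678 in limma).

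The LFA1 genes differed by less than the spread between libraries. Itgal (chromosome 7, mm10, 127296260 to 127335138) had log2 values of 12.82 and 12.77 in WT and 12.80 and 12.85 in KO, a difference of 0.03 (95% interval -0.06 to 0.12, adjusted p = 0.455 in limma). Itgb2 (chromosome 10, mm10, 77530252 to 77565708) stood at 11.91 and 11.85 in WT and at 11.85 and 11.91 in KO, so both groups had the same mean of 11.88. The 95% interval of its difference was -0.10 to 0.10, so a change of that size is not excluded. As the libraries did not vary independently, the interval may be too narrow and is no upper limit. For both genes the ranges of the groups overlapped.

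Itgav and Itgb3, the chains of the vitronectin receptor, likewise overlapped between the genotypes. Itgav (chromosome 2, mm10, 83724397 to 83806916) stood at 11.31 and 11.33 in WT and at 11.31 and 11.27 in KO, a difference of -0.03 (95% interval -0.09 to 0.03, adjusted p = 0.303 in limma). Itgb3 (chromosome 11, mm10, 104608000 to 104670476) was at 11.40 in both WT libraries and at 11.36 and 11.40 in KO, a difference of -0.02 (95% interval -0.08 to 0.04, adjusted p = 0.445 in limma). Itgb3 is best known from platelets, whose markers were near the bottom of the scale. Of 8 listed platelet genes, 7 were read, and 6 of these were at a log2 value of 0.10 or below in every library, Pf4 and Ppbp among them. The seventh, Gp1ba, stood between 5.0 and 5.24.

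**Figure D2:**
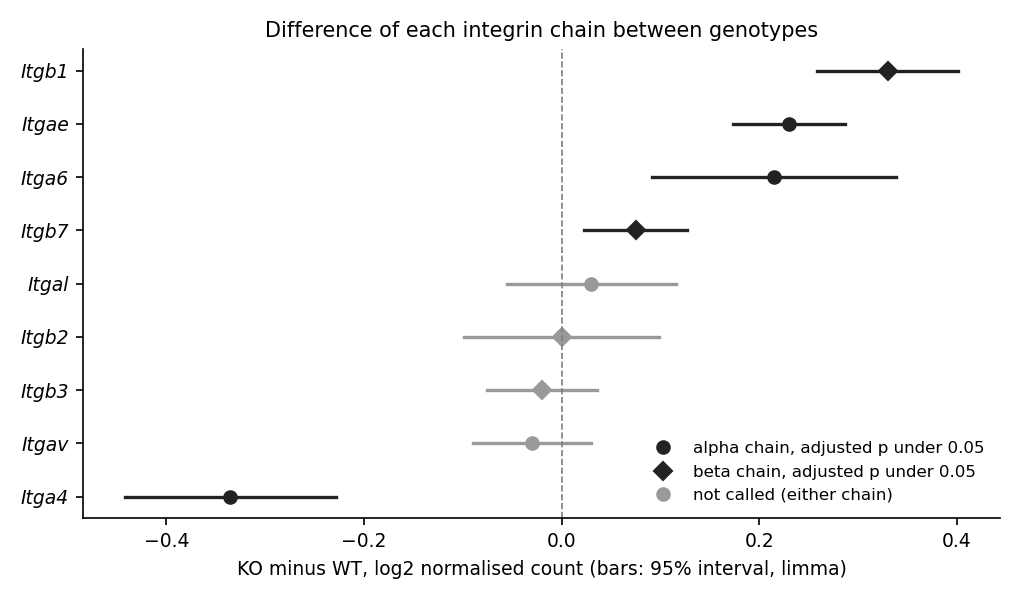
KO minus WT difference of the log2 normalised count (x axis) for each integrin chain, with the 95% interval from limma as bars (2 libraries per group). Black points are called and grey points are not; circles are alpha and diamonds beta chains. Itgb1 at 0.33 and Itga4 at -0.335 mark the ends, and the 4 grey chains lie between -0.03 and 0.03.

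Read as pairs, some partners went the same way (Itga6 with Itgb1, Itgae with Itgb7) and others opposite ways (Itga4 with Itgb1 and with Itgb7). For each of 8 pairs, the log2 value of the beta chain was subtracted from that of the alpha chain in the same library, and KO was compared with WT by a two-sided exact permutation test. With 2 libraries against 2 this test cannot give a p below 0.33, or 0.381 adjusted over the 8 pairs. These values are therefore given as sizes with their spread.

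Itga4 minus Itgb1, the pair of VLA4, was 0.08 and 0.05 in WT and -0.61 and -0.59 in KO. The 2 groups were far apart and the libraries within each nearly equal (SD 0.02 and 0.01), though the libraries did not vary independently. The ratio of Itga4 to Itgb1 transcripts was thus 1.59-fold lower in KO, a log2 difference of -0.665 (exact permutation p = 0.33, the smallest possible). For the gut-homing pair, Itga4 minus Itgb7 was 0.43 and 0.39 in WT and -0.02 and 0.02 in KO, a difference of -0.41, or a 1.33-fold lower ratio. Itgae minus Itgb7, the pair that binds E-cadherin, was -1.46 and -1.43 in WT and -1.26 and -1.32 in KO. Here the alpha chain gained on the beta chain by 0.155, or 1.11-fold. The 2 alpha partners of Itgb7 thus went opposite ways against it, with no overlap of the groups in either pair. Lack of overlap was common, as it also held for 73.0% of all tested genes taken singly. Among the pairs read, only Itgav minus Itgb3 overlapped. Even Itgal minus Itgb2, with a difference of 0.03, did not, so this property does not set the Itgb7 pairs apart.

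Itga6 minus Itgb1, the laminin receptor pair, changed less, from -0.39 and -0.41 in WT to -0.54 and -0.49 in KO (difference -0.115), as both genes rose. Itgav minus Itgb1 was -1.06 and -1.0 in WT and -1.35 and -1.43 in KO, a difference of -0.36 that came with the rise of Itgb1. For LFA1, Itgal minus Itgb2 was 0.91 and 0.92 in WT and 0.95 and 0.94 in KO. That difference of 0.03 was the same in size as the difference of Itgal alone. Itgav minus Itgb3 overlapped between the groups, at -0.09 and -0.07 in WT and -0.05 and -0.13 in KO (difference -0.01, exact permutation p = 1). Itgav minus Itgb8, the dimer that activates TGF-beta on Treg, went from 0.89 and 0.93 in WT to 1.70 and 1.62 in KO. That increase of 0.75 came with a lower Itgb8, while Itgav was not called.

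**Figure D3:**
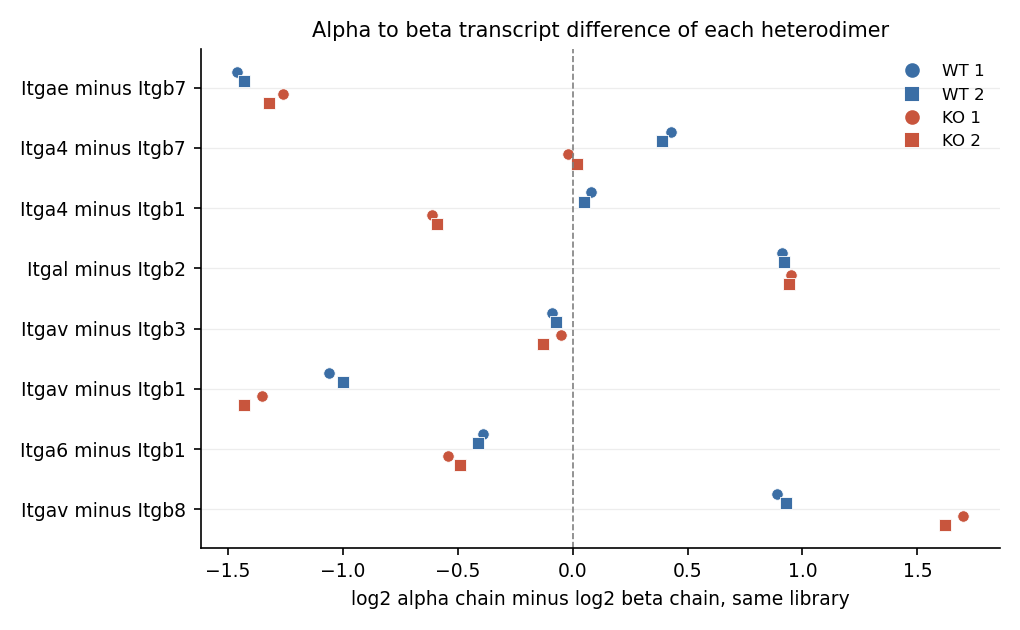
Log2 value of the alpha chain minus that of the beta chain in the same library (x axis) for 8 heterodimers, with WT in blue and KO in red, circles for replicate 1 and squares for replicate 2. Values left of 0 mean more beta than alpha reads before any correction for length. Itga4 minus Itgb1 goes from 0.08 and 0.05 in WT to -0.61 and -0.59 in KO, and Itgal minus Itgb2 stays within 0.91 to 0.95.

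Levels of different chains were compared per kilobase of exon, with exon lengths from GENCODE M21. On this log2 per kilobase scale the WT order was Itgb7 (10.58), Itgb1 (10.42), Itgb2 (10.31), Itgal (10.12), Itga6 (9.83), Itga4 (9.13), Itgb3 (8.87), Itgae (8.62) and Itgav (8.50). No neighbours in that order had overlapping ranges in WT, but the gap between Itgb1 and Itgb2 was 0.11 and the values rest on annotated lengths. With the length of the longest coding transcript in place of all exons, Itgal stood at 10.41 and moved ahead of Itgb2. In KO, Itgb1 (10.75) stood above Itgb7 (10.66), and Itga4 (8.79) stood below both Itgb3 (8.85) and Itgae (8.85). Those gaps were small, 0.09 from Itgb1 to Itgb7 and 0.05 from Itgae to Itga4, and also rest on annotated lengths. Itgb3 and Itgae could not be ordered in KO, as their ranges overlapped.

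**Figure D4:**
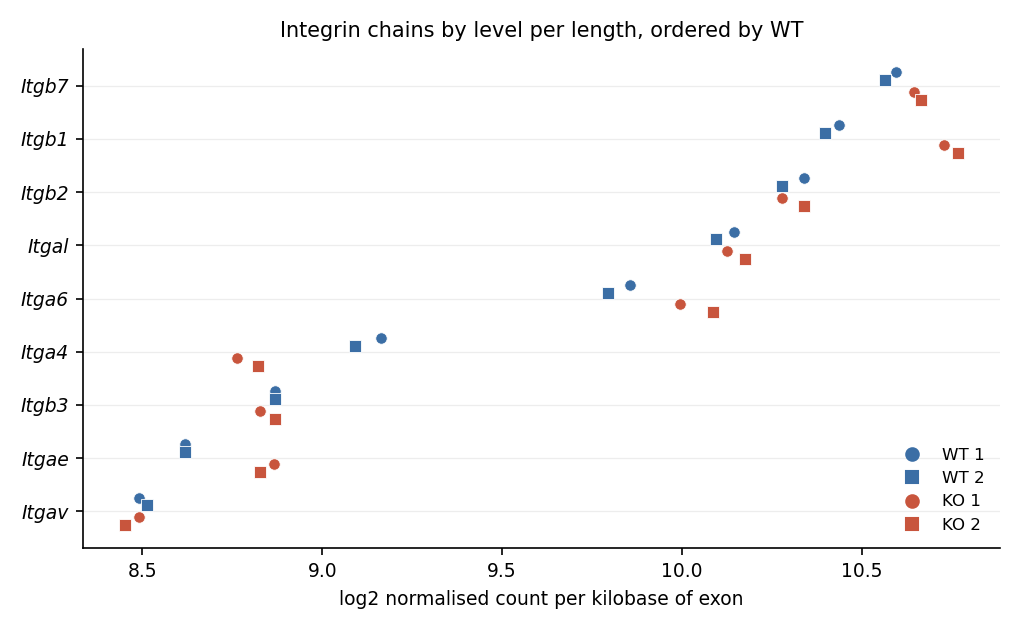
Log2 normalised count per kilobase of exon (x axis) of the 9 integrin chains in each library, ordered by the WT mean, with WT in blue, KO in red, circles for replicate 1 and squares for replicate 2. Itga4 goes from 9.13 in WT to 8.79 in KO, next to Itgb3 and Itgae, and Itgb1 goes from 10.42 to 10.75, above Itgb7.

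On the linear scale per kilobase, the composition of the alpha chain pool shifted with Itga4. Itga4 made up 16.9% and 16.6% of the summed level of the 5 alpha chains in WT and 12.8% and 12.9% in KO. Itga6 made up 27.4% and 27.0% in WT and 30.0% and 31.0% in KO, and Itgae 11.6% and 11.9% in WT and 13.7% and 13.0% in KO. Itgal held the largest share in every library, 32.9% to 33.5%. Among the 4 beta chains, Itgb1 went from 29.5% in each WT library to 34.0% in each KO library. Itgb2 went from 27.6% and 27.2% to 24.9% and 25.2%, although its own level had the same mean in both groups. Shares of a whole depend on each other and were not tested. The summed linear level per kilobase was 3385 and 3286 in WT and 3399 and 3500 in KO for the alpha chains, and 4698 and 4576 in WT and 4996 and 5132 in KO for the beta chains.

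The other integrin chains had lower deposited values than the members, between 4.11 and 10.42 among those tested and not corrected for length. If the scale is a regularised log, it compresses differences in the lower part of that range. Of 13 other alpha chain genes, 10 could be tested, 5 were called lower and 1 higher, 60% in all, against 47.4% of all tested genes (20.3% lower, 27.1% higher). Their median difference was -0.32. Itga7, a laminin receptor chain, was at 7.52 and 7.66 in WT and 9.01 and 8.95 in KO, a difference of 1.39 (SE 0.06, adjusted p = 0.00511 in limma), or 2.62-fold. Its groups were far apart. Itga3, another laminin receptor chain, went from 7.76 in both WT libraries to 7.39 and 7.40 in KO (-0.365, adjusted p = 0.00697 in limma). Itga9, whose dimer with the Itgb1 product binds tenascin and VCAM1, fell by 0.71 (adjusted p = 0.0109 in limma). Itga10, a collagen receptor chain, fell by 0.675 (adjusted p = 0.0112 in limma). Itga5 fell by 0.735 (adjusted p = 0.0241 in limma), the largest fall of these alpha chains. Itga7, Itga3, Itga9, Itga10 and Itga5 all pair with Itgb1, and of these only Itga7 was called higher. Among the member partners of Itgb1, Itga6 was called higher, Itga4 lower and Itgav was not called. The alpha partners of Itgb1 thus went in both directions, with more of those called lower than higher.

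Among 5 other beta chain genes, with the integrin-like gene Itgbl1 counted, 2 could be tested and both were called. Itgb5, a partner of Itgav in vitronectin binding, was at 6.76 and 6.37 in WT and 8.02 and 8.38 in KO, a difference of 1.635 (SE 0.20, adjusted p = 0.0111 in limma), or 3.11-fold. Itgb8 was at 10.42 and 10.40 in WT and 9.61 and 9.65 in KO, a difference of -0.78 (SE 0.02, adjusted p = 0.00434 in limma). These 2 beta partners of Itgav thus moved in opposite directions while Itgav did not pass the test. Over all 21 integrin chains tested, members included, 6 were called higher and 7 lower, 61.9% against the 47.4% of all genes.

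**Figure D5:**
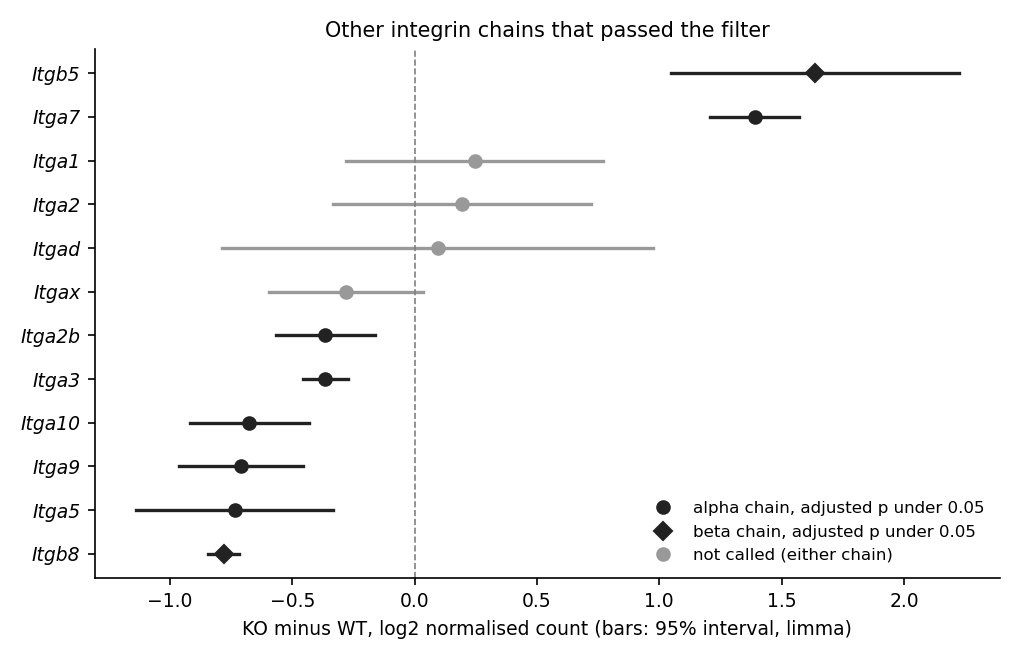
KO minus WT difference of the log2 normalised count (x axis) of the 12 other integrin chains that passed the filter, with 95% intervals from limma as bars. Itgam was left out. Black is called, grey is not, circles are alpha and diamonds beta chains. Itgb5 at 1.635 and Itga7 at 1.39 stand highest, and Itgb8 at -0.78 lowest.

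Inside the cell, integrins are switched on by talin and kindlin, which bind the beta chain tail, under the control of the small GTPase RAP1. Of 25 tested genes of this activation step, 5 were called higher, 4 lower and 16 were not called (36%, against 47.4% of all genes). Rapgef3, a RAP1 activator that responds to cyclic AMP, was low, at 5.20 and 5.17 in WT and 6.62 and 6.59 in KO, and rose 2.68-fold (1.42, SE 0.05, adjusted p = 0.00434 in limma). Fermt3, the kindlin of blood cells, was 0.135 higher (adjusted p = 0.00749 in limma), at 11.43 in both WT libraries and 11.56 and 11.57 in KO. Rasgrp2, the main RAP1 activator downstream of calcium in platelets and T cells, fell by 0.22 (adjusted p = 0.00608 in limma), and Sipa1, which switches RAP1 off, fell by 0.145 (adjusted p = 0.00823 in limma). An activator and an inactivator of RAP1 thus fell together. Tln1, the main talin of blood cells, differed by 0.005 and was not called (95% interval -0.07 to 0.08).

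Of 21 tested adaptors of integrin adhesions, 6 were called higher and 0 lower. These 28.6% compare with 27.1% of all tested genes called higher and 47.4% called in either direction. At an unadjusted p under 0.05 in limma, 8 were higher and 1 lower, the kinase gene Ptk2b, at -0.13. That threshold was met by 7667 of the 13685 tested genes in either direction, so this count does not set the adaptors apart. The actin-linking adaptor vinculin (Vcl) was at 7.92 and 7.86 in WT and 8.23 and 8.27 in KO, a difference of 0.36 (adjusted p = 0.00869 in limma). The docking protein gene Bcar1 had the same difference of 0.36 at a low level, from 4.33 and 4.23 to 4.62 and 4.66 (adjusted p = 0.0216 in limma). Cd47, an integrin-associated membrane protein, was 0.145 higher (adjusted p = 0.00701 in limma) and the actin cross-linker Actn4 0.135 higher (adjusted p = 0.00903 in limma). The median difference of these adaptors was 0.03, close to the 0.015 of all tested genes.

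Several ligands of the member dimers were themselves measured in these cells. Of 15 tested ligand genes, 4 were called higher and 2 lower (40%, against 47.4% of all genes). Madcam1, 1 of the 4, passed the filter through the KO libraries alone. The laminin chain genes Lama5 and Lamc1, which encode ligands of the Itga6 and Itgb1 dimer, both rose. Lama5 was at 9.47 and 9.66 in WT and 11.34 and 11.10 in KO, 3.15-fold higher (1.655, SE 0.11, adjusted p = 0.00608 in limma). Lamc1 was at 10.90 and 10.92 in WT and 11.53 and 11.55 in KO, 1.55-fold higher (0.63, SE 0.02, adjusted p = 0.00434 in limma). Cdh1, which encodes E-cadherin, the ligand of the Itgae and Itgb7 dimer, was at 6.08 and 5.72 in WT and 4.72 and 4.98 in KO, 2.07-fold lower (-1.05, SE 0.17, adjusted p = 0.0183 in limma). Madcam1, the ligand of the Itga4 and Itgb7 dimer, stood at 2.70 in both WT libraries and 3.52 and 3.65 in KO, given as values only.

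Of 16 tested genes known to act on integrin genes in T cells, 4 were called higher and 2 lower (37.5%, against 47.4% of all genes). Aldh1a3, 1 of the 4, passed the filter through the KO libraries alone. Runx3, a transcription factor that promotes CD103 in T cells, was at 10.77 and 10.74 in WT and 11.11 and 11.14 in KO, 1.29-fold higher (0.37, SE 0.02, adjusted p = 0.00551 in limma). Cbfb, the partner subunit of RUNX factors, was 1.10-fold higher (0.14, adjusted p = 0.00758 in limma). Rarg, a receptor of retinoic acid, the vitamin A product that imprints gut homing, was 1.37-fold lower (-0.45, adjusted p = 0.00769 in limma). Aldh1a3, an enzyme that makes retinoic acid, stood at 3.07 and 3.09 in WT and 3.81 and 3.71 in KO, given as values only. Smad3, a mediator of TGF-beta, which induces Itgae, differed by -0.105 and was not called.

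Sorted cells can carry other cell types, so marker lists were read in the same libraries. The counts of called markers stand against 47.4% of all tested genes called, 27.1% higher and 20.3% lower. Since bulk RNA was measured, fewer cells of a type and less RNA per cell cannot be told apart. The 7 B cell genes, all tested, had a summed linear value of 505.3 and 456.8 in WT and 374.2 and 359.6 in KO. Of these, 2 (28.6%) were called lower in limma, against 20.3% of all tested genes, and all 7 differences lay between -1.14 and -0.045. That list moved in the same direction as Itga4, which B cells also express. The part of B cells in the Itga4 result was not tested. The 9 myeloid genes summed to 677.8 and 487.5 in WT and 534.4 and 628.9 in KO, with overlapping groups, 1 called higher and 1 lower. The 5 NK cell genes summed to 102.3 and 89.58 in WT and 78.95 and 85.80 in KO, with 1 of 3 tested called lower. None was called of 2 tested CD8 genes, of 5 tested among 6 erythroid genes and of 1 tested among 7 platelet genes, and none of these had an unadjusted p under 0.05 in limma. The 7 endothelial and stromal genes summed to 2675 and 2522 in WT and 2502 and 2655 in KO, mostly from Pecam1, which T cells express. Of 3 tested, the collagen genes Col1a1 and Col1a2 were called lower. The 8 Treg and T cell genes summed to 33544 and 33076 in WT and 35238 and 35481 in KO, with 2 called higher and 1 lower.

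The genes most like Itgb1 over the 4 libraries, by the root mean square distance of values centred on each gene's own mean, were Zc3h12d (distance 0.0043), Scarb1 (0.0071) and Xylb (0.0071). Those nearest to Itga4 were the T cell receptor segment Trav9-2 (0.0043), Pcdhga12 (0.0050) and Tef (0.0071). The Trav segments and the protocadherin gamma cluster hold near-identical or shared sequence, so Trav9-2 and Pcdhga12 can share reads with relatives. Over only 4 libraries such likeness is common, as 100 genes lay within 0.03 of Itgb1 and 128 within 0.03 of Itga4.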

How the data were processed

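Poly-A RNA of 4 Treg libraries was analysed, 2 WT and 2 KO. The authors deposited log2 normalised counts, 1 column per library, per the file headers. STAR, DESeq2 and mm10 are named in the submitters' processing notes, without versions or order. Counting tool, use of strand and exact transform are not given in the sources used here. Values ran from -2.1 to 13.94. If they are a regularised log, differences of low genes are smaller than in counts. Depth is unknown, so no count model was run.

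KO was compared with WT in limma 3.58.1 (R 4.3.3) with a variance trend, no covariate and 2 residual degrees of freedom, for 13685 rows with a linear value of at least 10 in at least 2 libraries. Tests were two-sided, and the fit was tested on simulated data with independent libraries. The dependence between libraries described above was not simulated, so that test cannot show whether the p-values hold here. Each SD is over both libraries of a group. A log2 difference of mean values gives the fold. Pairs were tested by exact permutation (SciPy 1.17.1). Positions and exon lengths came from GENCODE M21 (GRCm38), which held all 9 members, and count from 1.

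All 9 members were named. Of each other list, up to 4 called genes with the smallest p were named, or 2 where none was called. For likeness, the 3 nearest genes were named. Tln1, Itga5, Smad3 and the TGF-beta genes named with it, Ptk2b, the collagen, platelet and Pecam1 markers and the limit of 0.2 were added after their values were seen. Itgam stood on 2 rows and was left out. Members and lists were chosen with earlier results of these data known. Alternatives were a replicate term, other filters, a pseudocount of 10, 2 other scalings, 2 other variance priors and leaving out each library; a crossed pairing was added after seeing the data.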

Additional observations from a re-analysis of the deposited data

How the results depend on the processing

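Leaving out any 1 library gave 0 genes called higher and 0 lower, and 0 integrin chains in either direction, in limma with 1 residual degree of freedom. At an unadjusted p under 0.05 there were then 5225 to 5669 genes and 3 to 4 of the 9 chains. The differences of the called chains kept their sign: Itgb1 0.31 to 0.35, Itgae 0.21 to 0.25, Itga6 0.17 to 0.26, Itgb7 0.06 to 0.09 and Itga4 -0.37 to -0.30. The difference of Itgav minus Itgb3, -0.01, ranged from -0.05 to 0.03 and turned to 0.03 without KO 2. With the replicate number as a block, limma called 0 genes and 0 integrin chains (smallest adjusted p 0.0964; 4881 genes, 35.7%, and 4 chains at an unadjusted p under 0.05). The labels do not say that a number marks a shared animal, litter or day. Same-numbered libraries deviated in opposite directions (-0.907), which does not settle whether the numbers mark sets. With the crossed pairing, 9728 of the 13685 tested genes were called, 5282 higher and 4446 lower. Of the 9 chains 6 were called, the additional one being Itgal. This pairing was set after the opposite deviations were seen, and its term takes up that spread. More calls thus follow from the choice of the term and give no support to any of them. A minimum of 100 left 3215 genes called higher and 1788 lower from 9867 tested, so fewer genes were tested. With no filter, 7693 of 28334 genes were called. Of the 9 chains, 2 were called higher, since the calls of Itga6 and Itgb7 were lost, and 1 lower. The cause of the lost calls was not tested. Quantile normalization gave 3029 genes higher and 3067 lower and median centring 2983 and 3250, against 3703 and 2778, and Itgb7 was then not called. The calls of Itgb1, Itgae and Itga4 were the same under these scalings, filters, the pseudocount of 10 and both variance priors. Depth is unknown, so counting error could not be given.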
